A study of Mus musculus with 3 samples.

Results

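The integrated stress response was followed through 8 mouse genes, Atf4, Atf3, Ddit3, Trib3, Asns, Chac1, Sesn2 and Stc2, in 3 pluripotent cell lines. They were taken by gene symbol from the platform's probe table, which assigned 12 probes to these 8 genes of 16593 named genes on the array. Asns had 3 probes, Ddit3 and Sesn2 had 2 each, and the other genes had 1 probe each. All 12 probes were detected (detection p under 0.01) on all 3 arrays, so the filter on dim probes removed none of the 8 genes. The genes were picked with their signals on these arrays already known, and their differences are therefore given as a description, without a p-value.

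Total RNA from each line was hybridised to 1 Illumina bead array. E3 (hybrid background) and T9 (129 background) are epiblast stem cell (EpiSC) lines, which resemble the epiblast after implantation. Both were untreated and grew on inactivated CF1 mouse embryonic fibroblast feeders in KSR medium with FGF2 at 5 ng/ml. OG2 (hybrid background) is an embryonic stem cell (ESC) line, which resembles the epiblast before implantation. It was also untreated and grew in KSR medium on gelatin, with the MEK inhibitor PD0325901 at 1 uM, the GSK3 inhibitor CHIR99021 at 3 uM and 1000 U of LIF. EpiSC were lifted with collagenase IV and OG2 was collected directly from its dish, so cell type, inhibitors, growth factors, feeders and harvest cannot be told apart. Each line is 1 culture, and p-values below rest only on the spread between the 2 EpiSC lines. For each gene that spread is estimated in part from all tested probes.

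Between 10768 and 11171 of the 25697 probes were detected per array, and bead standard errors had medians of 4.17% to 4.36% of the signal among detected probes. The number of arrays limits the precision. The labelled cell types were checked against marker genes. The naive factors Zfp42, Esrrb, Klf4 and Tbx3 had summed signals of 400.4 (E3), 476 (T9) and 9713 (OG2). The post-implantation factors Fgf5, Pou3f1, Otx2 and Zic2 had summed signals of 3839, 2279 and 464 in the same order. Of 10 fibroblast markers, E3 had signal above background for 2, T9 for 3 and OG2 for 4, with summed signals of 1138, 946 and 1330. Signals in these sums were not background-subtracted, and the median probe signal of an array was 87.5 to 89.2. The fibroblast sums are therefore largely background. The collagen genes Col1a2 and Col3a1 and the markers Postn, S100a4, Pdgfrb and Twist2 were not detected on any array. The detected markers went in different directions. Lox had a signal of 377 in OG2 and was not detected in E3 or T9. Col1a1 (146) and Dcn (199) were also highest in OG2, whereas Thy1 was highest in E3, at 286 beside 121 in T9 and 101 in OG2.

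In the integrated stress response, 4 kinases sense amino acid shortage, unfolded protein in the endoplasmic reticulum, double-stranded RNA or haem and mitochondrial stress, and phosphorylate the initiation factor eIF2alpha. Bulk translation then slows, while the Atf4 mRNA is translated better through upstream reading frames in its leader. ATF4 is a bZIP transcription factor that binds composite C/EBP-ATF response elements and activates genes of amino acid uptake and synthesis, tRNA charging and redox balance, and, with its partner CHOP, genes linked to cell death. Because ATF4 is controlled largely in translation, its mRNA level and its activity need not move together. The arrays measured mRNA only.

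Of the 8 genes, 4 were at least 2-fold apart from OG2 in the same direction in both EpiSC lines, namely Atf3, Chac1 and Stc2 on the higher side and Ddit3 on the lower. Over all 8688 genes measured, 13.8% met this rule, 6.77% on the higher and 7.07% on the lower side. Atf4 was the 1 gene of the 8 that was at least 2-fold apart between E3 and T9, a rule that 5.79% of all genes met. The choice of genes used these same values, so nothing is read from these counts. The promoters of these 5 genes are shown to set the ATF4 element beside the mRNA levels. Each line gives the 250 bases before the gene's start, 5′ to 3′ on the gene's strand, from RefSeq (GRCm38.p6), with motif matches in capitals. Atf4 lies at chr15:80254934-80255183 (plus strand), Atf3 at chr1:191183334-191183583 (minus), Chac1 at chr2:119350992-119351241 (plus), Stc2 at chr11:31370062-31370311 (minus) and Ddit3 at chr10:127290543-127290792 (plus).
Atf4: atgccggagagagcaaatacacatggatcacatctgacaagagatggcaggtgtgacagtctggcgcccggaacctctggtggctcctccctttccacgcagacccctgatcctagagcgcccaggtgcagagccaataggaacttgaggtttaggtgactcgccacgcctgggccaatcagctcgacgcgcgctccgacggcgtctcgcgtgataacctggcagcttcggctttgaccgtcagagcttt
Atf3: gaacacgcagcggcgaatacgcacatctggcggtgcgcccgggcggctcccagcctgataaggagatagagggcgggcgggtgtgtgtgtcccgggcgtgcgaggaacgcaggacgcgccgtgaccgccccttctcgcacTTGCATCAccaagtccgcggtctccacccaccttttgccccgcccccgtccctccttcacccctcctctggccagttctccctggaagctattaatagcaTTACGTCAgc
Chac1: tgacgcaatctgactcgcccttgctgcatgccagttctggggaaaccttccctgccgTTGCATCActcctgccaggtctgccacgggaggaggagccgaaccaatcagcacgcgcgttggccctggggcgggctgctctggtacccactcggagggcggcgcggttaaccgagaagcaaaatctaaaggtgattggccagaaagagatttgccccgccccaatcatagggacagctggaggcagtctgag
Stc2: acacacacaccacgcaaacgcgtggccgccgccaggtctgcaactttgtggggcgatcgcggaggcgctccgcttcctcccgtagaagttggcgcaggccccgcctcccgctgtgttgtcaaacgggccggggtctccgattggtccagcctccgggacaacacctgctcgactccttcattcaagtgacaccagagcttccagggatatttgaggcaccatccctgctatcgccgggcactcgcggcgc
Ddit3: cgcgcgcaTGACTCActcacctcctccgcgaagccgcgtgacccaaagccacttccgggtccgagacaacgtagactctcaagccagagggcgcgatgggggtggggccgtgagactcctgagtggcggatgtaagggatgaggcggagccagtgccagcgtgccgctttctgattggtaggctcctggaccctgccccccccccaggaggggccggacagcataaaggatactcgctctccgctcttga

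On both strands of windows from 250 bases before to 50 after the start, 3 motifs were searched. The core of the C/EBP-ATF response element, TGATGNAA, was present in 3.97% of all 32851 windows and in those of 4 of the 8 genes. In Chac1 and Atf3 the match was TTGCATCA, the reverse strand of that core, and its first base lay 193 and 110 bases before the start. In Asns the match was TGATGAAA, 23 bases before the start, and in Trib3 it was TTACATCA just after the start. The windows of Atf4, Ddit3, Sesn2 and Stc2 did not hold these letters. The CRE-like site TGACGTNA (2.93% of all windows) was present in Atf3, where it read TTACGTCA 10 bases before the start, and the AP-1 site TGACTCA (5.2% of windows) in Ddit3. Of the genes on the higher side in EpiSC, Chac1 and Atf3 held the C/EBP-ATF core and Stc2 did not. Asns and Trib3, which also held the core, had an EpiSC mean minus OG2 of -0.41 and -0.72 in log2 units. The Asns value is from its brightest probe, and its other probes gave -0.06 and -0.41. A match describes these letters and not a bound site.

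Atf4, the central transcription factor of the response, had a signal of 1021 ± 44.5 (bead standard error) in E3, 182 ± 8.52 in T9 and 899 ± 36.3 in OG2. E3 and OG2 were thus close to each other and T9 was far below both. On the normalized log2 scale, on which background was removed and arrays were made comparable, E3 exceeded T9 by 3.08 ± 0.13 (combined bead error, 1 array on each side), which is 8.44-fold. T9 minus OG2 was -2.96 ± 0.13 (7.76-fold) and E3 minus OG2 was 0.12 ± 0.094. Among all 8688 genes, ordered by E3 minus T9, Atf4 stood in place 9. The value rests on 1 probe, whose sequence was not given. How well this probe binds Atf4 RNA of each background was therefore not tested. T9 also differs from E3 and OG2 in its 129 background, which cannot be told apart from the line itself. In a bulk sample, fewer cells that express a gene and less of its RNA per cell cannot be told apart either. The mean of the 2 EpiSC lines lay 1.42 below OG2, but this mean describes neither line.

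**Figure D1:**
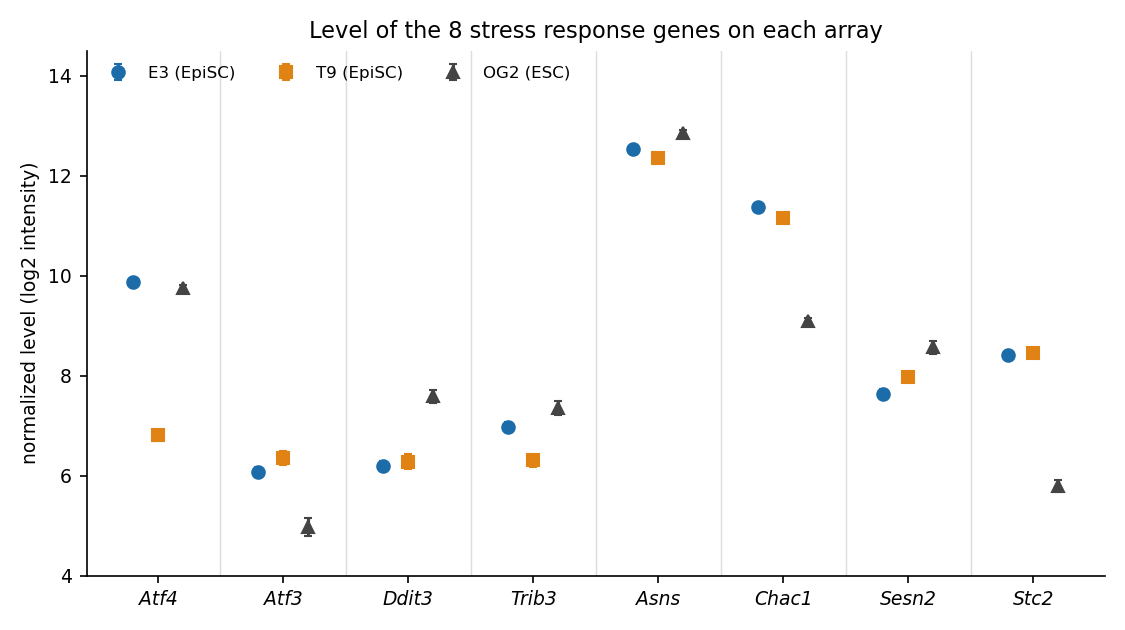
Normalized level (log2 intensity) of each of the 8 genes on the arrays of E3, T9 and OG2, by the probe with the highest mean level; bars are bead errors within an array. T9 stands 3.08 below E3 for Atf4, whereas Atf3, Chac1 and Stc2 lie higher, and Ddit3 lower, in both EpiSC lines than in OG2.

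Atf3, a bZIP repressor that is itself activated by ATF4, had low signals of 134 ± 4.55 in E3, 151 ± 8.18 in T9 and 95.3 ± 3.47 in OG2. OG2 was near background, with a detection p of 0.00501. Both EpiSC lines lay above OG2, by 1.11 ± 0.20 in E3 (2.15-fold) and 1.38 ± 0.22 in T9 (2.60-fold) on the log2 scale. The EpiSC mean lay 1.24 above OG2, but 0.73 with an offset of 50 in the background correction and 0.53 without that correction, and under both Atf3 was no longer 2-fold apart in both lines. E3 minus T9 was -0.27 ± 0.16.

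Ddit3 encodes CHOP, the bZIP partner of ATF4 that is linked to cell death under lasting stress. Its brighter probe had a signal of 140 ± 5.22 in E3, 146 ± 8.62 in T9 and 254 ± 15.2 in OG2. Its second probe gave 109 ± 4.75, 107 ± 3.79 and 176 ± 10.03. By both probes OG2 was the highest line and the EpiSC lines lay close together. The log2 difference from OG2 was -1.39 ± 0.16 in E3 and -1.31 ± 0.20 in T9 by the first probe, and -1.44 ± 0.21 and -1.55 ± 0.18 by the second. E3 and T9 differed by -0.08 ± 0.18 and 0.11 ± 0.21, within the bead error for both probes. Without background correction the difference of the EpiSC mean from OG2 was -0.87 in place of -1.35, and Ddit3 was no longer 2-fold apart in both lines.

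Trib3, a pseudokinase induced by ATF4 and CHOP that dampens ATF4 activity, had a signal of 192 ± 8.41 in E3, 148 ± 7.39 in T9 and 225 ± 16.5 in OG2. T9 was again the lowest line. T9 minus OG2 was -1.05 ± 0.19 on the log2 scale (2.07-fold lower) and E3 minus OG2 was -0.38 ± 0.17. E3 minus T9 was 0.67 ± 0.16, or 1.59-fold, the next largest difference between the EpiSC lines after Atf4 among the 8 genes.

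Asns encodes asparagine synthetase, the classical target of the amino acid branch. Its brightest probe had a signal of 6577 ± 186 in E3, 5258 ± 149.9 in T9 and 6609.6 ± 166 in OG2. By this probe the 3 lines were within 1.42-fold of each other. Its other probes gave 1695 ± 87.6, 1371 ± 38.8 and 1515 ± 57.1, and 298 ± 14.1, 294 ± 15.7 and 354 ± 24.0, in the order E3, T9 and OG2. T9 was the lowest line by all 3 probes. The log2 difference E3 minus T9 ranged from 0.05 ± 0.13 to 0.26 ± 0.088 over the probes. T9 minus OG2 ranged from -0.51 ± 0.064 to -0.19 ± 0.078. E3 minus OG2 ranged from -0.39 ± 0.15 to 0.065 ± 0.096, so its sign differed between probes. By no probe was Asns more than 1.19-fold higher in E3 than in T9, beside 8.44-fold for Atf4.

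Chac1 encodes a glutathione-degrading gamma-glutamylcyclotransferase that lies downstream of ATF4. Its signal was 2773 ± 135 in E3, 2343 ± 117 in T9 and 580.5 ± 22.5 in OG2. Both EpiSC lines lay far above OG2, by 2.28 ± 0.10 in E3 (4.84-fold) and 2.07 ± 0.10 in T9 (4.19-fold) on the log2 scale. E3 minus T9 was 0.21 ± 0.11, or 1.16-fold, beside 8.44-fold for Atf4. By the EpiSC mean minus OG2, Chac1 stood in place 132 of 8688 genes.

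Stc2 encodes stanniocalcin 2, a secreted glycoprotein that is induced by ATF4 in endoplasmic reticulum stress. Its signal was 410.0 ± 18.5 in E3, 429.5 ± 16.8 in T9 and 119 ± 4.41 in OG2. Of the 8 genes it had the largest EpiSC mean over OG2, at place 66 of 8688. The log2 difference from OG2 was 2.61 ± 0.15 in E3 (6.12-fold) and 2.66 ± 0.14 in T9 (6.33-fold). The EpiSC lines differed by -0.05 ± 0.11, within the bead error.

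Sesn2 encodes a leucine sensor that restrains mTORC1 and is activated by ATF4, p53 and NRF2. Its brighter probe had a signal of 266 ± 12.2 in E3, 325 ± 18.1 in T9 and 427 ± 31.2 in OG2. Its second probe was dim, with 107 ± 3.95, 122 ± 5.24 and 124 ± 5.88. The order of the lines was the same by both probes, with OG2 highest and E3 lowest. The log2 difference from OG2 was -0.93 ± 0.15 in E3 and -0.60 ± 0.16 in T9 by the brighter probe, and -0.54 ± 0.20 and -0.13 ± 0.20 by the dim one. T9 and OG2 did not differ beyond the bead error by the dim probe.

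**Figure D2:**
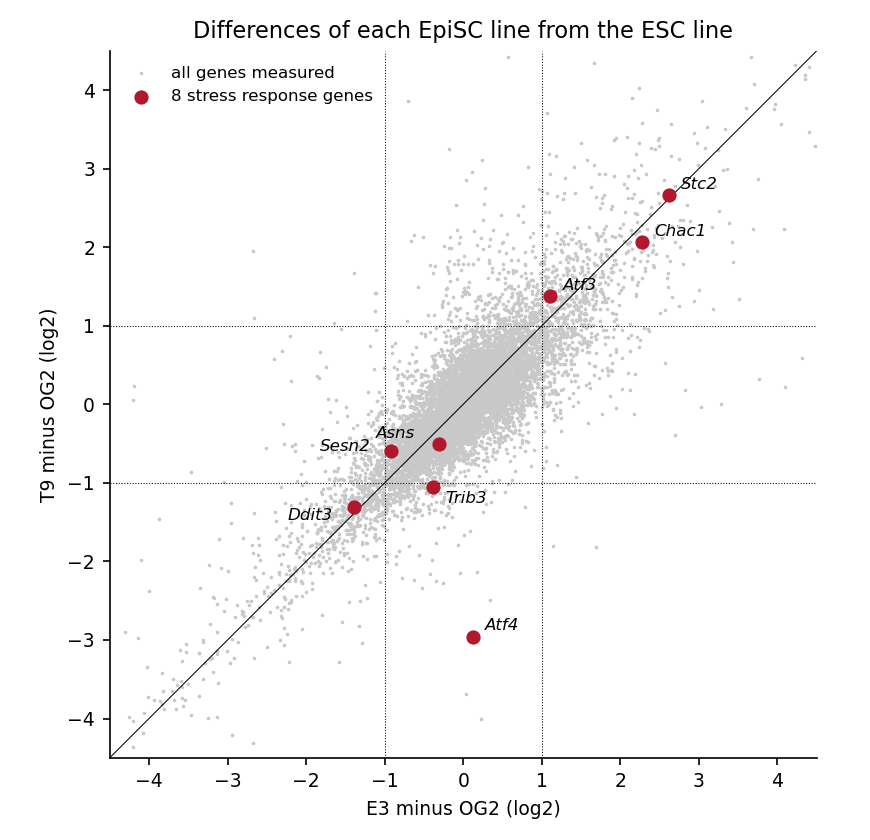
Log2 difference from OG2 in E3 (horizontal) and T9 (vertical) for all 8688 genes measured (grey) and the 8 stress response genes (red); dotted lines mark 2-fold, the solid line marks equal differences, and 41 genes lie beyond the axes. Both axes share the OG2 array. Stc2, Chac1 and Atf3 lie at the upper right, Ddit3 at the lower left, and Atf4 far below the diagonal.

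Among the 8 genes, bead error alone was exceeded (by more than 2 times) between E3 and T9 for 4 (Atf4, Trib3, Asns and Sesn2), between E3 and OG2 for 7, and between T9 and OG2 for 8. Of all 8688 genes, 47.7%, 65.9% and 67% exceeded it in these comparisons. Bead error covers the measurement within an array and not a repeat culture. OG2 lay outside the range of the 2 EpiSC lines for 7 of the 8 genes, all but Atf4, and for 81.6% of all genes. The median log2 difference of the 8 from OG2 was -0.10 in E3 and -0.55 in T9, beside 0.035 and 0.031 over all genes measured. The 8 genes did not share a direction, with 3 above and 5 below OG2 in the EpiSC mean, where 52.9% of all genes lay above.

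The genes with the pattern most like Atf4 were sought among the 6512 other genes detected on all 3 arrays, as the smallest Euclidean distance between log2 levels centred on their mean over the 3 lines. Tomm22, a subunit of the mitochondrial import receptor, came first, at a distance of 0.56. It was followed by L1td1, Cdc42ep3, Gpn2 and Grhl2, at distances up to 0.90. Tomm22 had levels of 9.07 (E3), 5.35 (T9) and 9.04 (OG2). For Chac1 the nearest were Tnfaip8, Oxld1, Smarca1, Dgat2 and Timm21 (distances of 0.045 to 0.10), and for Ddit3 they were Cdc5l, Neo1, Cul4b, Dhrs11 and Stag3 (0.024 to 0.042). None of these 15 genes was 1 of the 8. With 3 arrays such likeness is a description only.

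**Figure D3:**
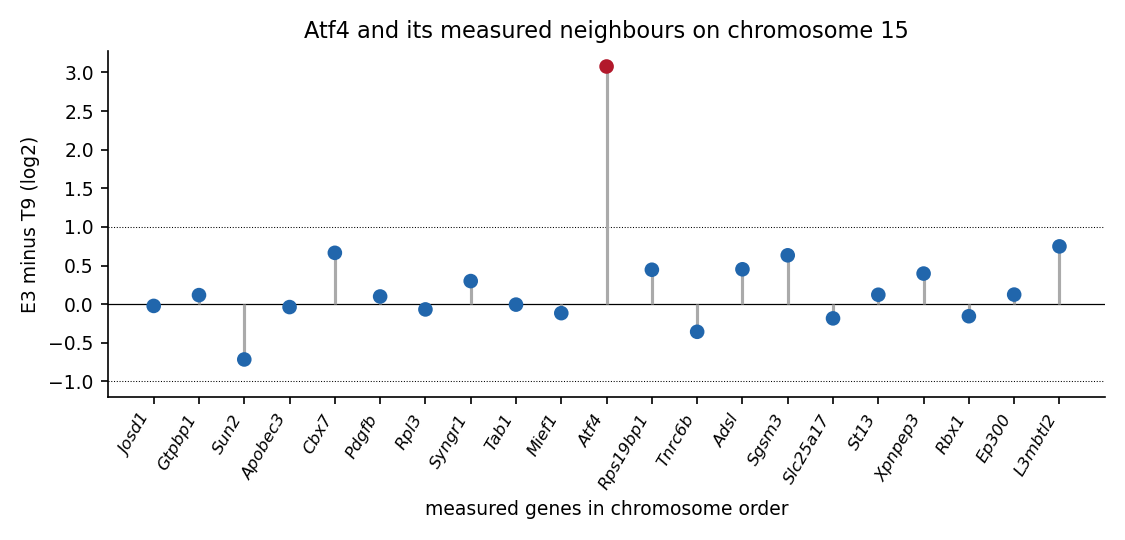
Log2 difference E3 minus T9 for Atf4 (red) and the 10 nearest measured genes on each side in chromosome order (blue); dotted lines mark 2-fold. The 20 neighbours lie between -0.71 and 0.75, and Atf4 at 3.08. Tomm22, just outside this range of genes, is not shown.

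Atf4 lies on chromosome 15, and its neighbours were read from the RefSeq gene order, a choice made after the Atf4 values were seen. None of the 10 nearest measured genes on each side was 2-fold apart between E3 and T9. Their median log2 difference was 0.11, and they ranged from -0.71 (the nuclear envelope gene Sun2) to 0.75 (L3mbtl2). The directly adjoining measured genes Mief1 and Rps19bp1 differed by -0.12 and 0.45. Tomm22 is also on chromosome 15, 11 measured genes before Atf4 and so just outside this window. Its log2 difference E3 minus T9 was 3.71.

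The wider pathway was read from 13 lists of stress genes with 100 distinct entries besides the 8. Of these entries, 90 had a probe and 81 were measured. The lists were chosen with earlier results of these data known. Their counts and p-values are therefore a description and not an independent test. For EpiSC against ESC, 1 of these 81 rose and 1 fell with limma at a Benjamini-Hochberg adjusted p of 0.05 over all probes, where 1.22% of all genes passed in either direction. Ddit4, an mTORC1 inhibitor that ATF4 and hypoxia induce, rose by 3.02 ± 0.25 in log2 units (SE from limma, with 2 arrays of EpiSC and 1 of ESC), 8.12-fold, with an adjusted p of 0.0386. E3 stood at 12.21, T9 at 12.27 and OG2 at 9.22. Nupr1, a stress-induced chromatin protein, fell by 2.72 ± 0.26 (6.60-fold, limma adjusted p = 0.0471), with levels of 6.61, 6.80 and 9.43. Both are in the list of other ATF4 and CHOP targets, of whose 13 measured genes the other 11 did not pass. The 2 calls were lost with the authors' processed values and without a filter on dim probes, and the call of Nupr1 with the mean of all probes of a gene.

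In the same list Vldlr, a lipoprotein receptor gene, had levels of 8.88 (E3), 8.47 (T9) and 5.68 (OG2) (limma adjusted p = 0.0523). The growth arrest gene Gadd45a had a log2 difference of -1.28 in the EpiSC mean, the proapoptotic gene Bbc3 of -0.87 and the ER-associated degradation gene Herpud1 of 0.75. The genes of this list thus lay on both sides of OG2, from -2.72 to 3.02, with a median of 0.30 beside 0.047 over all genes.

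In the 12 other lists 0 genes passed with limma, and over the 81 genes an unadjusted p under 0.05 was found for 8 higher and 11 lower, beside 1040 and 1060 of all 8688. By size alone, 3 of the 81 were at least 2-fold above OG2 in both EpiSC lines (Ddit4, Vldlr and Psat1) and 4 at least 2-fold below it (Nupr1, Gadd45a, Nqo1 and Trp53inp1), rules that 6.77% and 7.07% of all genes met. Among 9 measured genes of amino acid synthesis, the serine pathway enzyme genes Phgdh and Psat1 and the proline pathway gene Aldh18a1 had log2 differences of 1.38, 1.19 and 0.98, and the transaminase gene Got1 of -1.03. Psat1 had levels of 12.83 (E3), 12.61 (T9) and 11.53 (OG2). The 8 measured amino acid transporters ranged from -0.96 (the arginine and lysine carrier gene Slc7a1) to 0.77 (the neutral amino acid carrier gene Slc1a4). Slc7a1 was detected in OG2 only, so its value is a difference from background. Slc7a11, of the same list, had a probe but was not detected on any array. The 12 tRNA synthetases ranged from -0.91 (Aars) to 0.44 (Lars), with a median of 0.10.

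Upstream of Atf4, none of the 3 measured eIF2alpha kinases passed. Eif2ak4, the kinase for amino acid shortage, had a probe but was not detected on any array. Eif2ak1, the haem-regulated kinase, had a log2 difference of -0.94 in the EpiSC mean. Eif2ak2, the kinase for double-stranded RNA, and Eif2ak3, the endoplasmic reticulum kinase PERK, had -0.08 and -0.03. The Eif2ak2 mean describes neither line, with E3 minus OG2 at -0.59 and T9 minus OG2 at 0.44. The 6 measured eIF2 and eIF2B subunits lay between -0.24 (Eif2b5) and 0.43 (Eif2b2). The phosphatase subunit genes Ppp1r15a, which feeds back on the response, and Ppp1r15b had 0.40 and -0.55. Of the bZIP partners, Nfe2l2, which encodes NRF2, had -1.04 and Cebpb 0.57. Among paralogues, Atf5 had -0.67, Trib2 0.66 and Sesn1 -0.23.

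Lists of neighbouring stress pathways held no call either. The 10 measured genes of endoplasmic reticulum chaperones and the ATF6/XBP1 branch ranged from -0.62 (Calr) to 0.42 (Hsp90b1), with a median of -0.10. None of them was 2-fold apart from OG2 in either EpiSC line. In this list Hspa5, Manf and Ern1 had a probe but were not detected on any array. The 5 measured NRF2 targets had a median of -0.43, with Nqo1 levels of 4.88 (E3), 4.47 (T9) and 7.18 (OG2) (limma adjusted p = 0.0620). The 5 measured p53 targets all had a negative difference in the mean, from -0.23 (Sesn1) to -1.61 (Trp53inp1), with a median of -0.94. Mitochondrial stress proteins ranged from -0.62 (Clpp) to -0.10 (Hspe1).

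**Figure D4:**
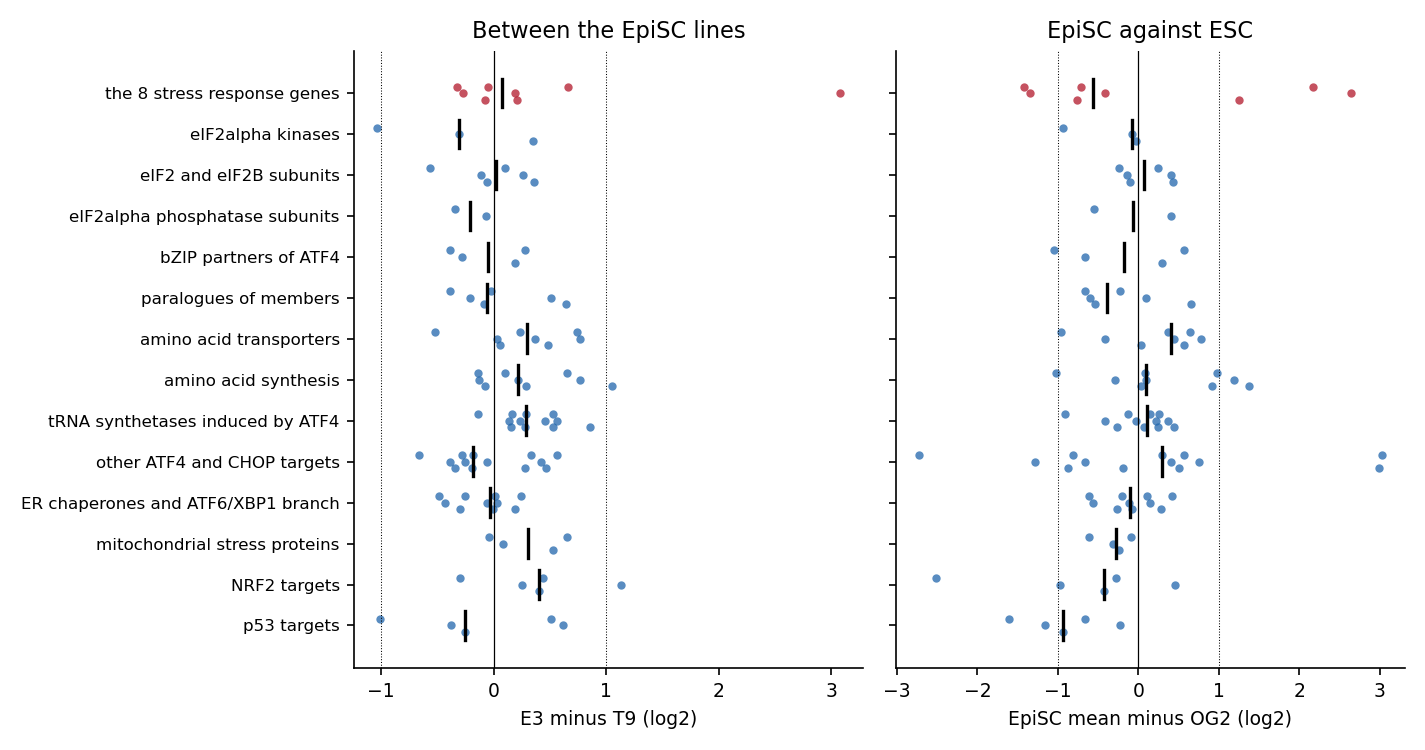
Log2 differences of each measured gene (points) and list medians (black bars) between E3 and T9 (left) and between the EpiSC mean and OG2 (right) for the 8 genes (red) and 13 stress lists (blue); dotted lines mark 2-fold. Atf4 lies at 3.08 on the left, and 11 of 12 tRNA synthetases lie to the right of 0 there.

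Between E3 and T9 there is 1 array on each side and no test. Of the 81 pathway genes, 2 were at least 2-fold higher in E3, the cystathionine gamma-lyase gene Cth (1.05 ± 0.16, combined bead error) and the glutathione synthesis gene Gclm (1.14 ± 0.09), and 2 in T9, Eif2ak2 (-1.03 ± 0.09) and the cell cycle inhibitor gene Cdkn1a (-1.01 ± 0.09). Of all genes, 2.41% and 3.38% met these rules. Of the 12 tRNA synthetases, 11 were higher in E3 than in T9 by any size, where 50.4% of all genes were, and their median log2 difference was 0.28 beside 0.0039. None of them reached 2-fold. The highest was Eprs at 0.86 ± 0.11, and Wars, at -0.14 ± 0.12, was the exception. The amino acid transporters had 7 of 8 higher in E3, with a median of 0.30, led by the cationic carrier gene Slc7a3 at 0.76 ± 0.09, and the exception was Slc1a5 at -0.52 ± 0.22. Of these 7, Slc7a1 was not detected in E3 or T9, so its sign carries no information, and Slc3a2 was not detected in T9. The synthesis genes had 6 of 9 higher in E3, with a median of 0.21. Other ATF4 and CHOP targets had 5 of 13 higher in E3, with a median of -0.18, from Sqstm1 at -0.67 to Fgf21 at 0.56. Fgf21 was detected on 1 array only. The chaperone list had 4 of 10 higher in E3, with a median of -0.03. Lists outside the ATF4 targets also had most genes higher in E3, with 4 of 5 NRF2 targets (median 0.41) and 3 of 4 mitochondrial stress proteins (median 0.31), while p53 targets had 2 of 5 (median -0.25). The NRF2 median is the value of Nqo1, which was not detected in T9 and stood near background in E3. The cause of these differences was not tested.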

How the data were processed

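Total RNA (400 ng, 12 h of in vitro transcription) of 2 EpiSC lines and 1 ESC line was measured on 1 Illumina array each; groups come from the sample titles. Per the file headers, the authors deposited a signal intensity for each probe, its standard error over beads and a detection p-value. The deposited intensity values are linear, not background-subtracted and not normalized between arrays. BeadStudio was used per the submitters' processing notes; version and genome build: not given in the sources used here.

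Background was corrected with nec of limma 3.58.1 (R 4.3.3) using the detection p-values and an offset of 16, followed by log2 and quantile normalization. The 12603 probes detected (p under 0.01) on any array were tested, and for each of 8688 genes the probe of highest mean level was used. EpiSC were compared with ESC by lmFit and eBayes, two-sided, with Benjamini-Hochberg adjustment over all probes and a threshold of 0.05. Lines were compared singly with a 2-fold rule. The bead error of a log2 level is the signal plus and minus its bead standard error, read through that array's normalization. The test was checked on simulated data.

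The 8 genes and all lists were chosen with earlier results of these data known. Genes named from the lists are those past the threshold and up to 3 at each end of a list in either comparison. Gene names come from the platform's probe table (23978 probes with 1 symbol, 1719 with none). Alternatives changed the background correction, normalization, filter, probe rule and source of values, the last being the authors' processed intensity values, with blanks at the lowest listed value.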

Additional observations from a re-analysis of the deposited data

How the results depend on the processing

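The count of the 8 genes at least 2-fold apart between E3 and T9 was 1, Atf4, under all 9 alternatives. The log2 difference of Atf4 ranged from 2.51 to 3.16. The filter settings and the probe rule could not change the Atf4 value. The count at least 2-fold from OG2 in both EpiSC lines was 4 and became 3 with an offset of 50 (Atf3 lost) and 2 without background correction (Chac1 and Stc2 left). The count of stress pathway genes past the limma threshold was 2 and became 4 with median scaling, with cyclic loess and with a looser filter (detection p under 0.05 on any array) (adding Vldlr and Nqo1 in each), 3 with detection required on all 3 arrays (adding Vldlr), 1 with the mean of all tested probes, and 0 with the authors' processed values and without a filter (unadjusted p under 0.05 for 15 and 24 genes). Under those last 2 settings 0 of all genes on the array passed. The cause was not tested.

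Leaving out T9 turned the EpiSC minus ESC difference of Atf4 from -1.42 to 0.12, and leaving out E3 gave -2.96. The 8 genes gave 160 values under an alternative or with a line left out. The spread was the SD of the 2 EpiSC lines, or 2 bead errors for E3 against T9. Of the 160, 143 moved by less than the spread, 16 moved by more and 1, the Atf4 value without T9, was counted as reversed. Among the 143, Ddit3 in E3 minus T9 also changed sign, from -0.08 to 0.02 with the mean of all tested probes, within the bead error. The filter settings could not change any of the 160 values, because all 12 probes were detected on all 3 arrays. The probe rule could not change those of genes with 1 probe. Leaving out a line always shifts the EpiSC mean by less than that SD, so it could only reverse a sign. Apart from the reversed value, these count among the 143 and could not have moved by more. The EpiSC minus ESC difference ranged from 0.53 to 1.84 for Atf3, from 1.77 to 2.97 for Stc2, which moved beyond the spread in 5 of 11 settings, and from -1.54 to -0.87 for Ddit3, in 4 of 11. Leaving out a line leaves no residual degrees of freedom, so the test could not be repeated. No paired analysis was possible because the labels give no replicate numbers shared between groups.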
